A study of Homo sapiens with 6 samples.

Results

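The histone cluster genes encode the 5 histone proteins and lie in groups on 3 chromosomes. They were chosen as the protein-coding rows of the count table whose gene name starts with HIST and a number, which gave 71 of 58735 genes. Another 19 rows with such names are not protein coding and were left out. Of the 71, 55 HIST1 genes lie on chromosome 6 between positions 25726132 and 27893843 of GRCh38, 12 HIST2 and 3 HIST3 genes lie on chromosome 1, and HIST4H4 lies on chromosome 12. By the histone they encode, 6 rows are H1, 17 are H2A, 18 are H2B, 15 are H3 and 15 are H4 genes. Members of 3 pairs of near-identical copies (HIST2H4A with HIST2H4B, HIST2H3A with HIST2H3C, HIST2H2AA3 with HIST2H2AA4) were summed, which left 68 genes or sums.

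RNA was sequenced from A549, a human lung carcinoma cell line, in a comparison of cells that overexpressed the cytokine IL17D with cells that carried the empty vector. Both groups were made with the same kind of lentiviral vector, in which the human PGK promoter drives the insert and an IRES allows GFP to be made from the same transcript, and the IL17D sequence was amplified from H82 cells, another lung cancer line. Each group had 3 libraries, and neither the time after transduction nor the origin of the libraries in separate cultures is stated. The p-values therefore measure only the spread between these libraries, which may be technical.

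Histone mRNAs of the clusters are unusual among the mRNAs of animal cells. Most are made in S phase, when new DNA has to be packed into nucleosomes, and most end in a short stem-loop in place of a poly(A) tail. The stem-loop is bound by SLBP, which takes part in the processing, translation and decay of these mRNAs. Outside the clusters, variant histone genes such as H2AFZ and H3F3B give polyadenylated mRNAs throughout the cell cycle. Some cluster genes also give longer, polyadenylated transcripts.

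The stem-loop is printed for members on which the results below turn, with the stem in capitals and the loop in lower case, as DNA letters 5′ to 3′ from the annotated GENCODE 29 transcripts. Positions are on GRCh38, in the 3′ untranslated region.

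HIST1H2AC, chr6:26124669-26124684, plus strand: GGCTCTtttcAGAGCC

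HIST2H2BE, chr1:149886188-149886203, minus strand: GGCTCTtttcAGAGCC

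HIST1H2BD, chr6:26158587-26158602, plus strand: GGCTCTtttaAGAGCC

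HIST1H4I, chr6:27139654-27139669, plus strand: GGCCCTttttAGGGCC

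HIST2H4A, chr1:149833032-149833047, plus strand: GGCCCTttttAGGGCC

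HIST2H4B, chr1:149860769-149860784, minus strand: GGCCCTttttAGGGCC

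HIST1H3E, chr6:26225596-26225611, plus strand: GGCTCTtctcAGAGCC

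The stems printed for the H2A, H2B and H3 genes are alike, the H4 genes share another stem, and the loops differ among members. A stem-loop of this form was found in 32 of the 71 members and in 0.502% of 19922 protein-coding genes. The models of 33 of the other 39 members hold the coding sequence alone, so their ends were not searched. The polyadenylation signal AATAAA lay in the last 50 bases of a transcript of 21 members, against 73.2% of protein-coding genes. The same 33 models hold no 3′ untranslated region and were counted as without the signal. Members with the signal had a median level of 1.38 CPM (counts relative to the TMM-scaled size of the library), and those without it 0.0852 CPM. Members with a stem-loop in their model had a median of 0.762 CPM and those without 0.0626 CPM. Level also moved with the length of the model. The median was 0.0714 CPM for the 49 genes or sums of up to 1000 bases and 1.11 CPM for the 19 longer ones. The parts of length and of the models that hold the coding sequence alone in these differences were not tested.

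Promoter sequences are shown for HIST2H4A and HIST2H4B, which were hard to tell apart, for HIST2H2BE, which had the smallest p-value, and for HIST1H2BK and HIST1H1C, the highest H2B and the only tested H1 gene. Each runs from 250 bases before to 50 bases after the start of the gene in RefSeq (GRCh38.p14), 5′ to 3′ on the gene's strand. Capitals mark matches on either strand to CCAAT (the CCAAT box), to the octamer ATTTGCAT, to AAACACA as found in H1 promoters, to GGTCCG as found in H4 promoters, and to the TATA box letters TATAAA.

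HIST2H4A, chr1:149832407-149832706, plus strand: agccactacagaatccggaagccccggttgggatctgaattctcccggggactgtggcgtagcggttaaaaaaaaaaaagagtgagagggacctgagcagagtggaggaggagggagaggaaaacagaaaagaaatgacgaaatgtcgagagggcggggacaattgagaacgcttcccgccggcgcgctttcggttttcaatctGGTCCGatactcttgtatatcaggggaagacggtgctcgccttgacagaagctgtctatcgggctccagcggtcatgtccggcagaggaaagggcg

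HIST2H2BE, chr1:149886633-149886932, minus strand: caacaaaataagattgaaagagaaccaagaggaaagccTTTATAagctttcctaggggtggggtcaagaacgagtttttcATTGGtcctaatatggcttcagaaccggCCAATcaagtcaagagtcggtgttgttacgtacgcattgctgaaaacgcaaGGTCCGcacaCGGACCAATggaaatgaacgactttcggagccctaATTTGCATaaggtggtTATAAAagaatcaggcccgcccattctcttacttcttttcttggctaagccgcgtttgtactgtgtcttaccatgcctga

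HIST1H2BK, chr6:27146806-27147105, minus strand: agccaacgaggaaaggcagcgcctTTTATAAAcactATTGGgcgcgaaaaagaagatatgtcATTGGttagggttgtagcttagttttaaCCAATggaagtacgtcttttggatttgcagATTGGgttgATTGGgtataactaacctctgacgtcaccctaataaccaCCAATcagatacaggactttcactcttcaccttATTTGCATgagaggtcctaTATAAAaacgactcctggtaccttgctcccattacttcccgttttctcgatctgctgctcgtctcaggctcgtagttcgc

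HIST1H1C, chr6:26056421-26056720, minus strand: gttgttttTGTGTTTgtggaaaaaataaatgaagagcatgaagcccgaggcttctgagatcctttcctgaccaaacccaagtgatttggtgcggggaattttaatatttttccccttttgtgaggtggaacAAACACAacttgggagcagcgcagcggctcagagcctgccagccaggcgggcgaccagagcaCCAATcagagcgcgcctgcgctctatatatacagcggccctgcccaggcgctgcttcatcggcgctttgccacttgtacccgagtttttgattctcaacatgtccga

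The promoter of HIST2H4B (chr1:149861110-149861409, minus strand) was the same as that of HIST2H4A at 300 of 300 bases. Of the members, 61 matched a RefSeq promoter. CCAAT was found in 51 of them, in every H1, H2A, H2B and H3 promoter but in 3 of 13 H4 promoters, against 35.7% of 27305 promoters of all genes. The octamer ATTTGCAT lay in 11 of 16 H2A and 9 of 13 H2B promoters and in 1.8% of all. Promoters of some neighbouring H2A and H2B genes on opposite strands overlap, as for HIST2H2BE and HIST2H2AC, so 1 site can count for both. AAACACA was in 6 of 6 H1 promoters (5.76% of all), GGTCCG in 12 of 13 H4 promoters (11.2% of all) and TATAAA in 42 of the 61 (12% of all). In the HIST2H2BE promoter 1 match of GGTCCG overlaps a match of CCAAT. Such matches describe the letters only.

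Gene counts totalled 14319398 to 16521021 per library, and 3 counts, the limit that a count of 0 allows, corresponded to 0.182 to 0.210 CPM. Such limits and the counting intervals given here cover counting error only. IL17D had 24, 18 and 34 counts in the control libraries and 31274, 32155 and 26772 in the IL17D libraries (1.61 ± 0.450 and 1911 ± 40.6 CPM, SD, n = 3), as the labels require. KRT8, an epithelial keratin, was at 7519, 7647 and 7779 CPM in control and 7201, 7434 and 7437 CPM in IL17D libraries, whereas EPCAM stood near 1 CPM (1.05 ± 0.375 and 0.976 ± 0.122) and KRT19 near 0.4 (0.370 ± 0.184 and 0.415 ± 0.233). CDH1, the adhesion protein E-cadherin, was lower in IL17D libraries (43.4 ± 2.65 against 35.7 ± 3.32 CPM, edgeR adjusted p = 0.0309), a call that was lost on leaving out any of 4 of the 6 libraries. All 5 tested epithelial markers had log2 fold changes below 0, with a median of −0.07. At an unadjusted p under 0.05 in edgeR 3 of them were lower, against 5.99% of all tested genes. The list of 6 summed to 12737 to 13243 CPM in control and 12371 to 12619 CPM in IL17D libraries without overlap, and its part in the results on histone genes was not tested. Of the 6 leukocyte markers PTPRC and CD3E were at 0 in all libraries, and the summed list stood at 0.746 to 1.11 CPM in control and 0.730 to 1.34 CPM in IL17D libraries. The 4 endothelial markers summed to 0.346 to 0.435 and 0.0701 to 0.608 CPM with KDR at 0. The 6 fibroblast markers summed to 22.7 to 25.2 and 19.6 to 24.4 CPM. The 5 alveolar markers summed to 1.62 to 3.08 and 1.03 to 1.58 CPM without overlap. Of these only 1 was tested, with a log2 fold change of −0.87. It passed an unadjusted but not an adjusted p of 0.05 in edgeR.

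Histone cluster genes made up 0.00891% to 0.00988% of the counts of a library. Their summed level was 96.4, 98.6 and 98.9 CPM in the control libraries and 95.6, 98.7 and 89.4 CPM in the IL17D libraries. The groups overlapped, and the log2 ratio of the means was −0.05 against a spread between libraries of 0.05. In bulk RNA, fewer cells of a type or cell cycle phase and less RNA per cell cannot be told apart. RN7SK, RMRP and RPPH1, which lack a poly(A) tail, had 0 counts in all 6 libraries. Whether RNA was selected by its poly(A) tail is not given in the sources used here.

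A few genes held most of these counts. Only 3 of the 68 had a mean of at least 10 CPM, 15 had 1 to 10 CPM, 40 were above 0 and under 1 CPM, and 10 had no count in any library. The 5 highest held 56.5% and the 12 highest 83.8% of the summed CPM. Of the 10 without counts, HIST1H3D and HIST1H2AD share 100% and 98.1% of their 31-base stretches with AL031777.3, which overlaps them. HIST1H2AK shares 100% with HIST1H2BN and HIST2H3PS2 99.5% with AC239798.4, which overlap them too. The others without counts share 11.7% (HIST1H2BB) or less. Over 50% of the stretches of 18 members occur in other genes. The part of such sharing in absent or low counts was not tested. Scaled by length, HIST1H2BK stood at 49.2 CPM per kb, HIST1H1C at 16.1, HIST1H2BD at 8.55 and HIST1H2AC at 6.70, and the median of the 58 with counts was 0.378 CPM per kb. The 12 variant histone genes outside the clusters had a median of 47.9 CPM per kb, and 6 of them stood above HIST1H2BK. H2AFX (145 CPM per kb), H2AFZ (141) and H1F0 (107) were the highest variants.

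**Figure D1:**
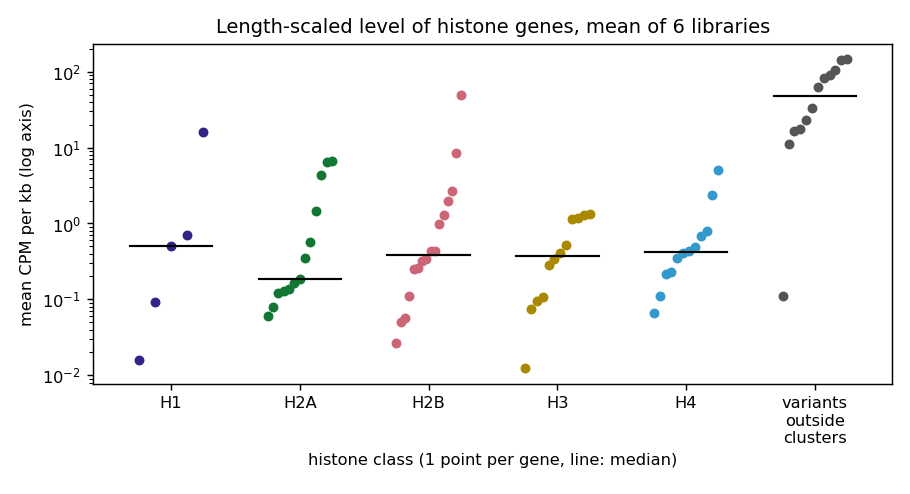
Mean level of each histone gene over the 6 libraries in CPM per kb of annotated exon length, on a log axis, with 1 point per gene or summed pair and a line at the median. Cluster genes are grouped by histone, the 10 without counts are not drawn, and the median of the 58 drawn is 0.378 against 47.9 for the 12 variants outside the clusters. The parts of poly(A) tails, of the annotated models and of sequence shared with other genes in this difference were not tested.

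Of the 68 genes, 21 had enough counts to be tested, 1 of 6 H1, 4 of 16 H2A, 9 of 18 H2B, 3 of 14 H3 and 4 of 14 H4. None of the 21 passed an adjusted p of 0.05 in edgeR's quasi-likelihood test, where 1.57% of all 15754 tested genes did (0.666% higher and 0.901% lower). At an unadjusted p under 0.05 edgeR counted 2 of 21 (9.52%), both higher in IL17D libraries, against 11.6% of all tested genes (5.59% higher and 5.99% lower). DESeq2's Wald test counted 0 at the adjusted and 1 at the unadjusted threshold, against 1.19% and 7.67% of all tested genes. The CPM of the groups did not overlap for 2 of 21 (9.52%), 1 higher and 1 lower, against 15.8% of all tested genes (7.47% higher and 8.31% lower). Thus in both directions together the shares of histone genes past these edgeR and overlap limits were no larger than those of all genes. The unadjusted share in the higher direction was larger (9.52% against 5.59%) and rested on 2 genes, HIST2H2BE and the HIST2H4A and HIST2H4B sum. That sum reached the level needed for testing through the IL17D libraries and control replicate 1. HIST1H1E, highest in control libraries, fell short of that level. The share in a single direction is therefore not independent of which members could be tested. The log2 fold change was above 0 for 10 and below 0 for 11, with a median of −0.01 beside −0.00044 for all tested genes. The 95% intervals reached from 0.206 to 1.19 on either side of the log2 estimate, and 16 of 21 lay within −1 to 1, and 6 within −0.5 to 0.5.

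**Figure D2:**
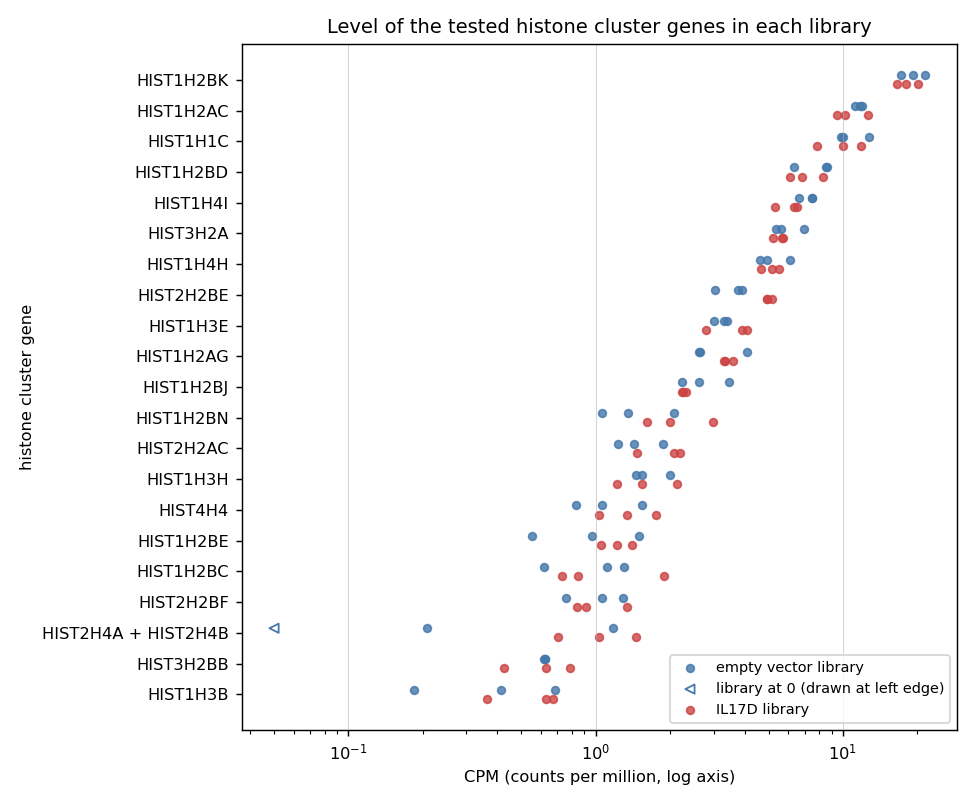
CPM of each of the 21 tested histone genes or summed pairs in each of the 6 libraries, on a log axis. Control (empty vector, blue) and IL17D (red) libraries are interleaved for most genes, while HIST2H2BE is separate and higher in IL17D libraries and HIST1H4I separate and lower.

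Among the linker histones, HIST1H1C was the only H1 gene with enough counts to test. It had 162, 185 and 158 counts in control and 194, 164 and 112 in IL17D libraries, which is 10.9 ± 1.67 and 9.87 ± 1.97 CPM (SD, n = 3). The groups overlapped, and the log2 fold change of −0.13 ± 0.14 (SE) had an edgeR adjusted p of 0.809. The lowest IL17D library, replicate 3, had the lowest H1 sum, 8.62 CPM, of which HIST1H1C itself made up 7.85 CPM. HIST1H1E, another linker histone, did not reach the level needed for testing, with 15, 14 and 8 counts in control and 5, 3 and 5 in IL17D libraries. When every gene with at least 1 count was fitted, HIST1H1E had a log2 fold change of −1.50 ± 0.60 (SE) and an edgeR adjusted p of 0.389.

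HIST1H2AC was the highest H2A gene. Its counts were 181, 170 and 192 in control and 155, 208 and 145 in IL17D libraries (11.6 ± 0.419 and 10.7 ± 1.69 CPM). The highest and both lowest values were from IL17D libraries, and the edgeR adjusted p was 0.816 with a log2 fold change of −0.11. HIST3H2A (5.98 ± 0.879 and 5.54 ± 0.269 CPM), HIST1H2AG (3.13 ± 0.847 and 3.41 ± 0.156 CPM) and HIST2H2AC (1.51 ± 0.325 and 1.91 ± 0.384 CPM) overlapped between the groups as well, with log2 fold changes of −0.11, 0.12 and 0.35. HIST2H2AC shares 50.6% of its 31-base stretches with other genes, so its reads may be split among them.

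HIST1H2BK, on chr6:27146418-27146798, was the highest member, with 19.5% of the summed CPM. It had 311, 248 and 345 counts in control and 271, 332 and 257 in IL17D libraries (19.2 ± 2.16 and 18.2 ± 1.87 CPM). The groups overlapped over most of their range. The log2 fold change was −0.08, with a 95% interval from −0.29 to 0.13 and an edgeR adjusted p of 0.843, the narrowest interval among the 21. Its model holds the coding sequence alone, and 86.3% of its 31-base stretches occur in other genes, most of them in H2BFS, whose 2 rows had 4 counts in all 6 libraries together.

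HIST2H2BE, on chr1:149884459-149886652, had 61, 44 and 63 counts in control and 81, 81 and 74 in IL17D libraries. All IL17D libraries stood above all control libraries, at 5.01 ± 0.151 against 3.57 ± 0.465 CPM. The log2 fold change was 0.48 ± 0.19 (SE, 95% interval 0.10 to 0.87) and passed the unadjusted threshold, but the edgeR adjusted p of 0.274, the lowest of the 21, did not pass. Over the 14 alternatives the log2 fold change ranged from 0.38 to 0.55 and the adjusted p from 0.232 to 0.559, and without control replicate 2, the lowest library, the unadjusted threshold was not passed. Other genes hold 12.4% of its 31-base stretches.

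HIST1H2BN had 22, 30 and 17 counts in control and 33, 49 and 23 in IL17D libraries (1.49 ± 0.523 and 2.20 ± 0.704 CPM). The groups overlapped and the log2 fold change of 0.57 had an edgeR adjusted p of 0.530. Its model of 5477 bases, the longest of the 71 members, overlaps HIST1H2AK and HIST1H2AL. HIST1H2BD (7.84 ± 1.30 and 7.06 ± 1.11 CPM) and HIST1H2BJ (2.77 ± 0.616 and 2.27 ± 0.0369 CPM) had log2 fold changes of −0.15 and −0.29, and the groups overlapped for both.

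Of the H3 genes, HIST1H3E was the highest, with 49, 49 and 53 counts in control and 64, 67 and 40 in IL17D libraries (3.23 ± 0.194 and 3.59 ± 0.687 CPM). IL17D libraries stood both above and below all control libraries, and the log2 fold change of 0.16 had an edgeR adjusted p of 0.862. HIST1H3H and HIST1H3B, the other tested H3 genes, had log2 fold changes of −0.03 and 0.36 with overlapping groups. HIST2H3A and HIST2H3C, whose 31-base stretches are all shared, had 1 count together in each group. HIST2H2AA3 and HIST2H2AA4 likewise had 3 and 4 counts.

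HIST1H4I, on chr6:27138588-27139881, had 108, 108 and 121 counts in control and 107, 104 and 76 in IL17D libraries. Its CPM were lower in every IL17D library (6.05 ± 0.635 against 7.21 ± 0.491), but the log2 fold change of −0.25 ± 0.15 (SE) had an edgeR adjusted p of 0.585. HIST1H4H, with the second-highest H4 level, did not differ beyond its spread, at 5.21 ± 0.775 and 5.13 ± 0.428 CPM and a log2 fold change of −0.03. HIST4H4 had 25, 12 and 17 against 22, 17 and 25 counts.

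HIST2H4A (chr1:149832659-149839767) and HIST2H4B (chr1:149854045-149861210) encode the same histone H4 on opposite strands. HIST2H4B had 0, 1 and 0 counts in control and 15, 23 and 10 in IL17D libraries, a ratio of 47.6 with a counting interval from 8.15 to 1920. HIST2H4A had 19, 2 and 0 counts in control and 2, 1 and 0 in IL17D libraries, a ratio of 0.142 with a counting interval from 0.0271 to 0.475. The ratio of HIST2H4A rests on control replicate 1, since without it HIST2H4A had 2 counts in control and 3 in IL17D libraries, a ratio of 0.972 with a counting interval from 0.111 to 11.6. Of their 31-base stretches 98.6% of HIST2H4A and 97.2% of HIST2H4B are found in the other copy. How reads that match both copies were counted is not given in the sources used here.

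Summed, the pair had 19, 3 and 0 counts in control and 17, 24 and 10 in IL17D libraries (0.459 ± 0.624 and 1.06 ± 0.380 CPM). Control replicate 1 lay among the IL17D libraries, and the other control libraries lay below all of them. The log2 fold change of the sum was 1.19 ± 0.58 (SE, 95% interval 0.014 to 2.39) and passed the unadjusted threshold, with an edgeR adjusted p of 0.425. With the copies kept apart, HIST2H4A had too few counts to test, and HIST2H4B was called (edgeR adjusted p = 0.000238). HIST2H4B reached the level needed for testing only through the IL17D libraries, where it is high. Its call is therefore not independent of that choice, and the same holds for the sum without control replicate 1. Without control replicate 1 the sum was called as well, with a log2 fold change of 3.34 and an edgeR adjusted p of 0.0248, and limma voom on all libraries gave 2.36. Without control replicate 3 the log2 fold change was 0.60, with an edgeR adjusted p of 0.737. Over the 11 alternatives that gave an adjusted p it ranged from 0.0248 to 0.737, and DESeq2 gave a log2 fold change of 1.21 without an adjusted p.

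**Figure D3:**
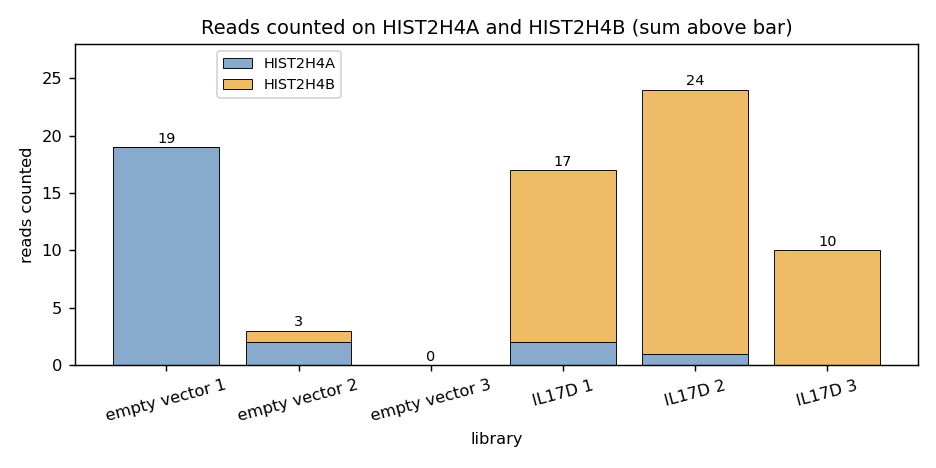
Reads counted on HIST2H4A (blue) and HIST2H4B (orange), stacked, in each library, with their sum above each bar. Nearly all reads of the pair were on HIST2H4A in control replicate 1 (19 of 19) and on HIST2H4B in the IL17D libraries (15 of 17, 23 of 24 and 10 of 10).

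**Figure D4:**
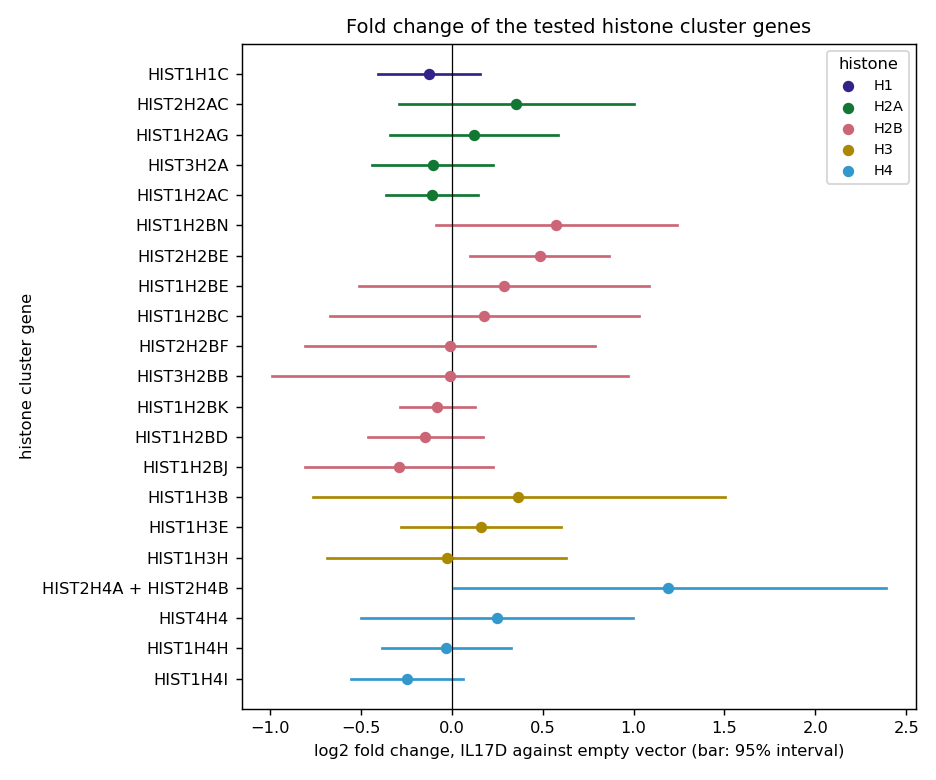
The log2 fold change of each tested histone gene or summed pair, IL17D against control, with its 95% interval from edgeR, coloured by histone. The intervals of HIST2H2BE and of the HIST2H4A and HIST2H4B sum lie above 0, all others include 0, and no adjusted p was under 0.05.

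Each histone was also summed over all its members, tested or not. H1 stood at 12.1 ± 1.84 CPM in control and 10.6 ± 1.86 in IL17D libraries, H2A at 23.2 ± 1.33 and 22.2 ± 1.52, H2B at 39.9 ± 1.27 and 39.9 ± 1.61, H3 at 7.09 ± 1.06 and 7.15 ± 0.779, and H4 at 15.6 ± 1.01 and 14.8 ± 0.461. The log2 ratios were −0.19, −0.06, −0.0027, 0.01 and −0.08 in that order. The libraries of both groups overlapped for each of the 5 histones.

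**Figure D5:**
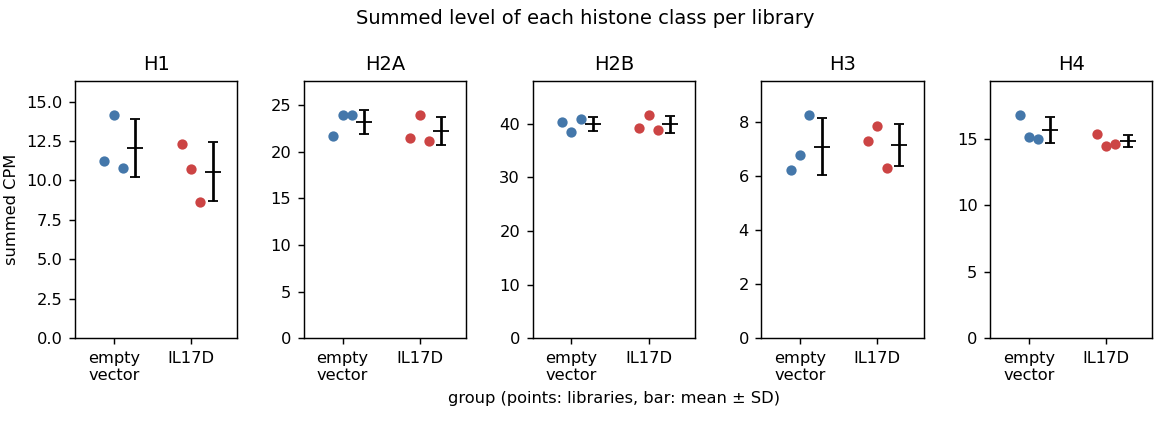
Summed CPM of all members of each histone class in each library, with the mean and SD of 3 libraries beside the points and every axis starting at 0. The points of control (blue) and IL17D (red) libraries overlap in all 5 panels.

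Members with an annotated exon length of up to 1000 bases were compared with longer ones as a description. The 50 shorter members summed to 54.0, 57.2 and 53.8 CPM in control and 51.9, 51.4 and 47.5 CPM in IL17D libraries, a log2 ratio of −0.13 without overlap. The 21 longer members summed to 42.3, 41.3 and 45.0 CPM in control and 43.7, 47.3 and 41.9 CPM in IL17D libraries, a log2 ratio of 0.05 with overlap. Of the tested genes, 3 of 8 shorter and 7 of 13 longer ones had a log2 fold change above 0, with medians of −0.09 and 0.12.

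The members of low level were few in counts. In a split chosen after the values were seen, the 53 members with a mean under 1 CPM had 137, 123 and 134 counts in control and 119, 118 and 101 in IL17D libraries, or 8.43, 8.50 and 8.33 against 7.23, 7.18 and 7.08 CPM. The groups did not overlap and the log2 ratio was −0.23. The 95% counting intervals of single libraries, 102 to 162 counts in control and 82.3 to 142 in IL17D, did overlap. They are not scaled for library size and do not measure the difference between the groups. The 4430 other protein-coding genes under 1 CPM summed to 983 ± 27.0 and 990 ± 13.8 CPM, a log2 ratio of 0.01. That sum held 13961 to 16538 counts per library, so it cannot show how far sums of so few counts as the members' vary. Among the 47 genes or sums not tested, 37 had counts, and 3 of these (8.11%) were lower in IL17D libraries without overlap, against 3.26% of all rows with at least 1 count that were not tested (2.59% were higher). They were HIST1H1E (above), HIST1H2AI, with 9, 7 and 4 against 4, 1 and 2 counts, and the H4 gene HIST1H4A, with 5, 6 and 5 against 3, 2 and 2 counts. These 3 were named after their values were seen, and no member that was not tested was higher without overlap. The rows set against them were of every gene type and were not matched to the members by count. HIST1H2AI shares 63.8% of its 31-base stretches with HIST1H2AJ.

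Other genes of histone supply and of the cell cycle were looked at beside the members. Of 24 tested genes of histone transcription and 3′ end processing, none passed an adjusted p of 0.05 in edgeR. At an unadjusted p under 0.05 in edgeR 3 were higher and 0 lower, with a median log2 fold change of 0.04. Among all tested genes, 5.59% were higher and 5.99% lower at that unadjusted threshold. SLBP was at 96.4 ± 1.07 CPM in control and 103 ± 1.97 in IL17D libraries without overlap (edgeR adjusted p = 0.438), and NPAT, the activator of histone gene transcription in S phase, at 17.2 ± 1.69 and 16.9 ± 2.07 (adjusted p = 0.961). None of 16 histone mRNA decay genes passed the adjusted threshold in edgeR (1 higher and 0 lower at an unadjusted p under 0.05, median 0.05). None of 20 histone chaperones passed it (1 higher and 0 lower, median −0.02). Of 11 tested variant histone genes none passed in edgeR, with 1 higher and 1 lower at an unadjusted p under 0.05 and a median of 0.0087. H2AFZ, the variant H2A.Z, was at 323 ± 11.8 and 328 ± 9.27 CPM (adjusted p = 0.867), and H3F3B, a replacement H3, at 493 ± 3.57 and 512 ± 3.26 CPM (adjusted p = 0.504).

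Of 35 S phase genes 1 passed the adjusted threshold in edgeR, against 1.57% of all tested genes. At an unadjusted p under 0.05 in edgeR 3 were higher and 2 lower, against 5.59% and 5.99% of all tested genes. RRM2, a subunit of the ribonucleotide reductase that makes DNA building blocks, was higher in all IL17D libraries, at 182 ± 5.56 against 155 ± 6.66 CPM, a log2 fold change of 0.23 ± 0.04 (SE) with an edgeR adjusted p of 0.00101. The median of the list was 0.03. PCNA, the sliding clamp of DNA replication, was at 399 ± 2.12 and 416 ± 6.96 CPM (edgeR adjusted p = 0.495). None of 20 genes of G2 and mitosis passed in edgeR, with 2 higher and 0 lower at an unadjusted p under 0.05 and a median of 0.03.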

How the data were processed

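RNA-seq libraries of A549 cells with an IL17D lentiviral vector (3) and with the empty vector (3) were compared. The authors deposited 1 table of raw read counts per gene and library, with gene coordinates that equal GENCODE 29 on GRCh38 for all 71 members. Gene length, as deposited, equals the union of exons. The submitters' processing notes name Bowtie2 and hg38. The counting tool and its treatment of strand and of reads matching several genes are not given in the sources used here, and the methods and the labels name different sequencers.

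Groups were taken from the labels. Near-identical copies were summed before the fit. Genes were kept by filterByExpr, scaled by TMM and tested by the quasi-likelihood test of edgeR 4.0.16 (R 4.3.3), two-sided, without covariates, with Benjamini-Hochberg adjustment over 15754 genes. CPM came from edgeR and errors are the SD of 3 libraries. Summed levels got no test. Counting intervals are exact (Poisson for counts, binomial for ratios, 95%). Alternatives were DESeq2 1.42.0, limma 3.58.1 voom, other scalings and filters, copies not summed, the replicate number as a block, and each library left out. The alternatives for the context lists, for IL17D and for the sums by length and level were added after the data were seen. Steps were tested on simulated data. Sequence matches and summaries used Python 3.11.15, pandas 2.3.3, scipy 1.17.1 and matplotlib 3.10.9.

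Named members are the 12 with the highest mean CPM, any past an adjusted p of 0.05, the 5 with the smallest p among those with a higher and the 5 among those with a lower mean, and the summed copies. Named context genes are those past an adjusted p of 0.05, with SLBP, NPAT, PCNA, H2AFZ and H3F3B. Other genes were named after their values were seen. Members and lists were chosen with earlier results of these data known. Within groups, the libraries' counts differed by more than sampling noise (chi-square per degree of freedom 2.19 to 3.39).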

Additional observations from a re-analysis of the deposited data

How the results depend on the processing

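No histone gene passed an adjusted p of 0.05 by edgeR, and 2 passed the unadjusted threshold. The adjusted count was 1 with the copies not summed (HIST2H4B) and 0 to 1 when each library was left out, with 1 without control replicate 1 (the HIST2H4A and HIST2H4B sum). In those fits HIST2H4B and the sum reached the level needed for testing only through the IL17D libraries. The unadjusted count was 1 with total counts, with DESeq2's Wald test and with at least 10 counts required in every library (HIST2H2BE each time), and 3 with every gene of at least 1 count, where HIST1H1E, lower in IL17D libraries, was added. It ranged from 1 to 4 when each library was left out, with 1 without control replicate 2 (HIST1H2BN, so that HIST2H2BE did not pass) and 4 without IL17D replicate 3. With the replicate number as a block, the counts were 0 and 2, the list genes past the adjusted threshold 1, IL17D's log2 fold change 10.19, and 270 against 247 of all genes passed. Same-numbered libraries correlated at 0.025, −0.032 and −0.022 in their deviations, and libraries of different numbers at −0.058 to 0.081. This gave no sign that the numbers pair the samples, which 3 libraries per group cannot exclude.

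Signs of log2 fold changes near 0 turned when a library was left out. The range was −0.27 to 0.0091 for HIST1H1C (above 0 without control replicate 2, at 0.0035, and without IL17D replicate 3), −0.16 to 0.0054 for HIST1H2BK (above 0 without control replicate 3), −0.10 to 0.10 for HIST1H4H (above 0 without control replicate 1 and, at 0.03, without IL17D replicate 2) and −0.18 to 0.016 for HIST3H2A (above 0 without control replicate 2). It was −0.13 to 0.054 for NPAT (above 0 without control replicate 3 and without IL17D replicate 1 and 3, at 0.041 and 0.0072) and −0.00069 to 0.054 for H2AFZ (below 0 without control replicate 3). The call of CDH1 was lost with DESeq2's Wald test and without control replicate 2 or 3 or IL17D replicate 1 or 2, with adjusted p from 0.00887 to 0.270 over the 14 alternatives, while RRM2 kept its call in all 14 (highest adjusted p = 0.0133). The sum of members under 1 CPM turned to a log2 ratio of 0.57 when only the tested members were kept, which are HIST1H3B, HIST3H2BB and the HIST2H4A and HIST2H4B pair. Of these the pair had the largest difference (0.459 against 1.06 CPM), and it reached the level needed for testing through the IL17D libraries and control replicate 1. The members not tested summed to 6.92 ± 0.410 CPM in control and 4.93 ± 0.187 CPM in IL17D libraries, a log2 ratio of −0.49. Both ratios depend on which members could be tested, so neither is a check of the sum. The cause of the other changes was not tested.

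The HIST2H4A and HIST2H4B sum had no value with the copies not summed or with at least 10 counts required in every library. The class sums moved by less than the spread between libraries. Of the 68 genes or sums, 47 had too few counts to test.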
